A study of Drosophila melanogaster with 4 samples.

Results

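Enrichment of dRING was described over 2 stretches of chromosome arm 2L that were assigned to 2 pairs of paralogous transcription factor genes, salm and salr (spalt major and spalt-related) and nub and pdm2 (nubbin and POU domain protein 2). The stretches are 2L:11420000-11530000, called the spalt window here, and 2L:12570000-12690000, called the POU window, both in FlyBase release 5. Every interval that overlapped a window in any of the 3 deposited lists was taken as a member. This gave 60 of the 13999 intervals in the lists, namely 18 of 3473 clusters from ChIP replicate 1, 12 of 3061 clusters from ChIP replicate 2 and 30 of 7465 regions from the list made for the whole series. The libraries were 2 dRING ChIP libraries, prepared with the antibody dRING Q3200, and 2 input libraries. All came from Drosophila melanogaster embryos of the wild-type strain Oregon-R, staged at 14 to 16 h. Each input served in making the list of 1 ChIP library, and no separate list of enriched intervals in the inputs was analysed here.

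Polycomb group proteins keep developmental genes silent in cells where those genes were not switched on earlier. dRING is encoded by Sex combs extra. In Polycomb repressive complex 1 it is the subunit that attaches ubiquitin to histone H2A. The complex is recruited in flies to Polycomb response elements and is also found over wider stretches marked by trimethylated lysine 27 of histone H3. salm and salr encode zinc finger proteins that act in embryonic patterning, in the tracheal system and, downstream of Dpp, in the wing disc. nub and pdm2 encode proteins with a POU domain and a homeodomain, which act in the temporal identity of embryonic neuroblasts, and nub also acts in wing growth. Whole embryos were used, so a signal from fewer cells and a weaker signal per cell cannot be told apart.

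The names of the windows follow the assignment, which could be checked only in part. In the release 6 gene table salr comes before salm along 2L, with the noncoding gene lncRNA:CR43681 listed between them, and nub comes before pdm2, with Ref2 listed between them. Read as plain numbers, the release 6 limits of salm, nub and pdm2 fall inside their windows, whereas those of salr end before the spalt window starts. On the same reading other genes also fall inside, namely Ref2, Nepl7 and lncRNA:CR44595 in the POU window and lncRNA:CR46454 in the spalt window. Only genes listed between or next to the genes of a pair were checked in this way. The files are in release 5, and positions were not carried from one release to the other, so no gene was placed on the intervals. The spalt window therefore cannot be taken to hold salr, and the values below belong to positions and not to a gene. The stretch before the window is described in the closing observations.

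Intervals covered more of both windows than of the rest of the arm in each of the 3 lists. Clusters of ChIP replicate 1 covered 17.9% of the spalt window and 41.1% of the POU window, against 6.37% of the arm outside the windows. Clusters of ChIP replicate 2 covered 9.57% of the spalt window and 18.5% of the POU window, against 4.81% of the arm outside them. In neither replicate did the arm's value reach that of a window, and the lowest window value, in replicate 2, lay above both values of the arm. Regions of the series list covered 33.0% and 46.7% of the windows, against 11.6% of the arm outside them. Over the replicates the mean was 13.7 ± 5.91% for the spalt window, 29.8 ± 16.0% for the POU window and 5.59 ± 1.10% outside them (SD, n = 2 for each). The POU window had the higher cover of the 2 windows in each list, though its lower replicate value, 18.5%, stood close to the higher one of the spalt window, 17.9%. No test over libraries was made with 2 libraries, and the windows were chosen with earlier results known, so these values are a description.

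**Figure D1:**
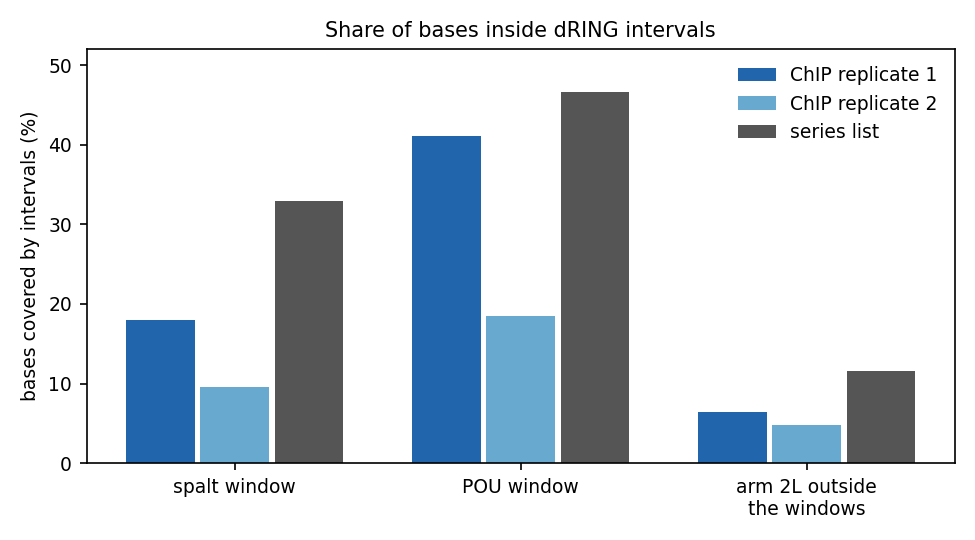
Percent of bases inside dRING intervals in the spalt window, the POU window and the rest of arm 2L, for ChIP replicate 1, ChIP replicate 2 and the series list. Each bar is the value of 1 list, and the bars of both windows stand above the bar of the same list for the rest of the arm, for example 41.1% in the POU window against 6.37% outside the windows in replicate 1.

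The series regions of the windows were sorted by whether a cluster of each ChIP library overlapped them by at least 1 bp. Clusters of both replicates overlapped 3 of 17 regions in the spalt window and 4 of 13 in the POU window, where the share over all 1258 regions of arm 2L was 27.5%. The 7 regions of the windows together made 23.3% of their 30 regions, which is near the share of the arm. Among regions at least as long as the shortest cluster of either replicate, 1301 bp, the counts were 3 of 9 and 4 of 12, against 40.4% of 857 regions on the arm. Replicate 1 alone overlapped a further 2 regions of the spalt window and 6 of the POU window, and replicate 2 alone overlapped 0 in either. Over all 1258 regions of the arm, replicate 1 alone overlapped 16.3% and replicate 2 alone 7.31%. No replicate cluster met 12 regions of the spalt window (70.6%) and 3 of the POU window (23.1%), against 48.9% on the arm. Of those 12, 7 were shorter than any cluster, as were 367 of the 615 such regions of the arm.

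Regions seen in both replicates had higher scores than the other regions within each window. The score is the authors' own value for each interval, with no stated scale, and each list carries its own scores. In the spalt window the 3 regions seen in both had series scores from 0.58 to 1.06, against 0.24 to 0.48 in the 14 others, without overlap. The 4 such regions of the POU window had 0.57 to 1.10, against 0.34 to 0.54 in the 9 others, again without overlap. The sorting and the scores rest on the same series, so this difference is partly built in and is no independent support. Over the arm the ranges did overlap, at 0.19 to 3.19 for regions seen in both and 0.17 to 3.32 for those met by no cluster. Among regions of at least 1301 bp, those met by no cluster had 0.17 to 1.12. Regions of the arm met by replicate 1 alone had 0.19 to 0.71, and those met by replicate 2 alone 0.15 to 0.68. Over all lengths the medians on the arm were 0.60 for regions seen in both and 0.39 for those met by no cluster. The median series score of the 7 was 0.90, against 0.60 over all 346 regions of arm 2L seen in both. Taken over every listed region, however, the medians were 0.43 in each window, against 0.40 on the arm outside them.

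The spalt window held its strongest region towards its lower edge. It ran from 11440152 to 11450249, was 10.1 kb long and had a series score of 1.06. Among the 346 regions of the arm seen in both replicates it took place 73 by score and place 20 by length. Replicate 1 had 2 clusters in it, from 11440425 to 11442750 with a score of 0.57 and from 11442827 to 11450178 with a score of 1.24. Replicate 2 had a single cluster, from 11444099 to 11449878, with a score of 1.32. The lower end of the region was thus in the clusters of replicate 1 and not in those of replicate 2, which covered 95.8% and 57.2% of it. The stronger cluster of replicate 1 stood at place 54 of the 597 clusters that library had on the arm, and the cluster of replicate 2 at place 71 of 492.

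Further up the window stood 2 shorter regions seen in both. The nearer one ran from 11473045 to 11475516, 29.1 kb from the strongest region between centres, with a series score of 0.58. Its clusters nearly coincided, the one of replicate 1 (score 0.58) lying from 11473161 to 11475367 and the one of replicate 2 (score 0.68) from 11473174 to 11475379. Replicate 1 covered 89.3% of this region and replicate 2 covered 89.2%, the closest match among the 7 regions. The farther one ran from 11486547 to 11490148, another 14.1 kb on, with a series score of 0.90. Its replicate 1 cluster ended at 11490105 and scored 1.05, and its replicate 2 cluster, from 11487400 to 11489937, scored 0.85.

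The order of the 3 regions by score was the same in both replicates. The mean of the highest cluster score was 1.28 ± 0.06 at the region starting at 11440152, 0.95 ± 0.14 at the one starting at 11486547 and 0.63 ± 0.07 at the one starting at 11473045 (SD, n = 2 for each). The replicates' values at the 3 regions did not overlap, although each list has its own scores, and the order within each list is the firmer reading. All 3 clusters that replicate 2 had in the window overlapped replicate 1 clusters, and 2 of them lay wholly inside one. Replicate 1 had 4 clusters there that met no cluster of replicate 2, with scores of 0.48 to 0.57. They include the weaker cluster of the strongest region, from 11440425 to 11442750. Another of the 4, from 11431002 to 11432487 (score 0.49), met no region of the series list. The share of all clusters of the arm that met the other replicate was not counted. These counts of clusters are therefore not read as particular to the window. No list had an interval in the upper end of the window from 11505919 to 11530000, a stretch of 24.1 kb.

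**Figure D2:**
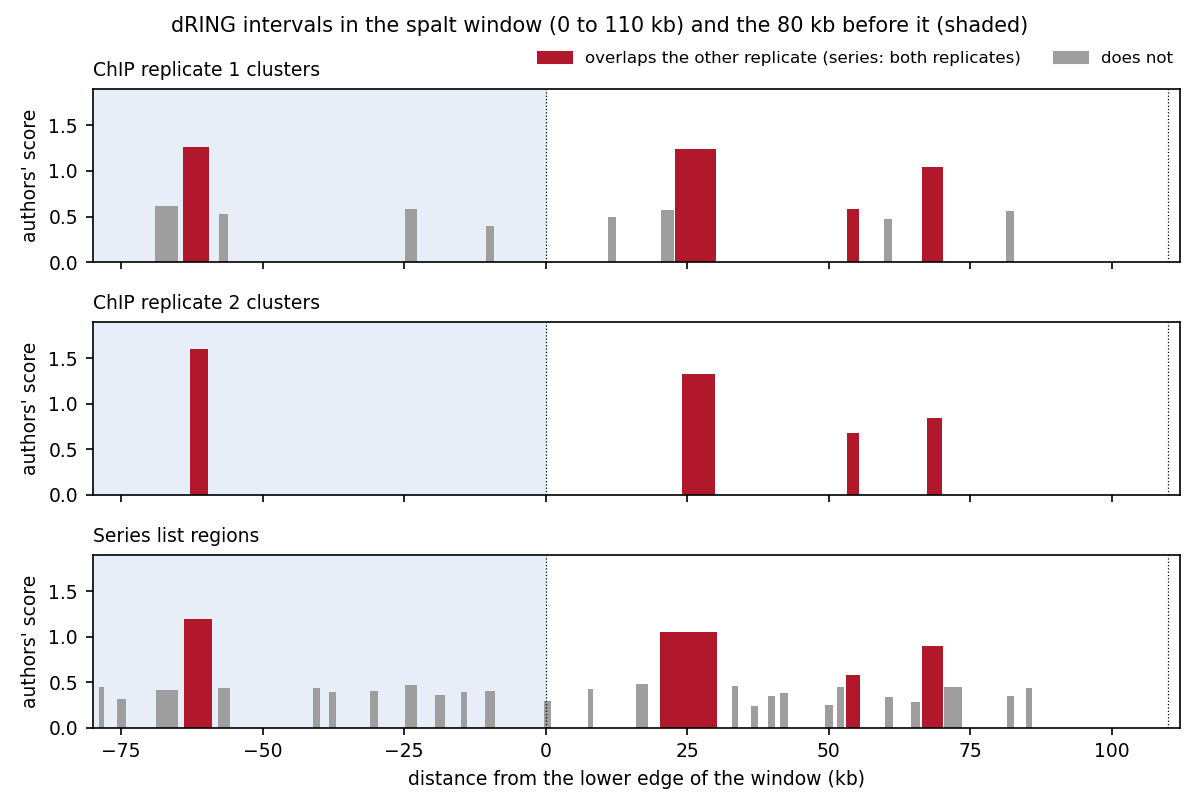
Intervals of ChIP replicate 1 (top), ChIP replicate 2 (middle) and the series list (bottom) along the spalt window, from 0 to 110 kb on the horizontal axis in kb, and along the 80 kb before it (shaded); bar width is the interval and bar height the authors' score in that list. Red bars overlap the other replicate (in the series list, both replicates): 3 places inside the window carry red bars in all 3 lists, and 1 place does so before it.

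The POU window held 4 regions seen in both replicates, spread over most of its length. The first ran from 12584074 to 12588409 and scored 0.86 in the series list. The replicate 1 cluster there, from 12583969 to 12588457, covered the whole region with a score of 1.00. Its replicate 2 cluster, from 12585887 to 12588216, covered 53.7% with a score of 1.11. The lower part of the region was again in a cluster of replicate 1 and not of replicate 2.

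The second region, 30.8 kb on between centres, had the highest series score of the window. It ran from 12611375 to 12622789, was 11.4 kb long and had a score of 1.10, at place 63 by score and place 15 by length among the 346. Replicate 1 had 1 cluster over 99.4% of it, from 12611449 to 12622797, with a score of 1.14. Replicate 2 split it into 2 clusters, from 12611917 to 12614745 with a score of 1.10 and from 12616699 to 12620150 with a score of 1.71. The 12616699 cluster scored highest of all clusters of replicate 2 in either window and stood at place 41 of 492 on the arm. The list of replicate 1, by contrast, had its highest score of the window in the next region.

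The third region, from 12653680 to 12658879, scored 1.02 in the series list. Replicate 1 had a cluster scoring 1.25 from 12654541 to 12658917 and a short one from 12652466 to 12653789 with a score of 0.48. Replicate 2 had 1 cluster from 12654811 to 12658517 with a score of 0.91. Here replicate 2 gave the lower score, as it also did at the spalt region starting at 11486547. At the other 5 regions it gave the higher one, but its scores ran higher over all of arm 2L, with a median of 0.68 in replicate 2 and 0.56 in replicate 1. Between the second region and the third no list had an interval from 12627413 to 12650320, a stretch of 22.9 kb.

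The fourth region differed from the others of the window in length and in how far replicate 2 split it. It ran from 12672178 to 12692723, which is 20.5 kb and place 5 by length among the 346, with 2723 bp beyond the upper edge of the window. Its series score of 0.57 was only at place 189, and of the 21 regions of the arm of 10 kb or longer that were seen in both replicates, whose median score was 1.08, 1 had a lower score. Replicate 1 covered 83.1% of it with a single cluster of 17.1 kb, from 12673775 to 12690850, with a score of 0.73. That was the second longest cluster of replicate 1 on the arm. Replicate 2 covered 51.6% of it with 5 separate clusters, whose scores ran from 0.58 to 0.74. A gap in replicate 2 from the cluster ending at 12679516 to the one starting at 12685924 lay inside the single cluster of replicate 1. Such a split was not particular to this region among the 21. Replicates 1 and 2 had 1 and 4 clusters at the region starting at 20766898, and 2 and 5 at 8819122. Some went the other way, as with 2 and 1 at 5397307. The limit of 10 kb was set after the lengths had been seen.

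The highest cluster scores averaged 1.43 ± 0.40 at the second POU region, 1.08 ± 0.24 at the third, 1.05 ± 0.07 at the first and 0.73 ± 0.01 at the fourth (SD, n = 2 for each). The first lay between the 2 replicate values of the third, and their order differed between the lists. The second and the third overlapped and also changed order. The second scored above the first in each list, at 1.14 against 1.00 in replicate 1 and 1.71 against 1.11 in replicate 2. The fourth had both of its values below every value of the other 3. Its 2 values were close, but stood at place 157 of 597 on the arm in replicate 1 and 201 of 492 in replicate 2.

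**Figure D3:**
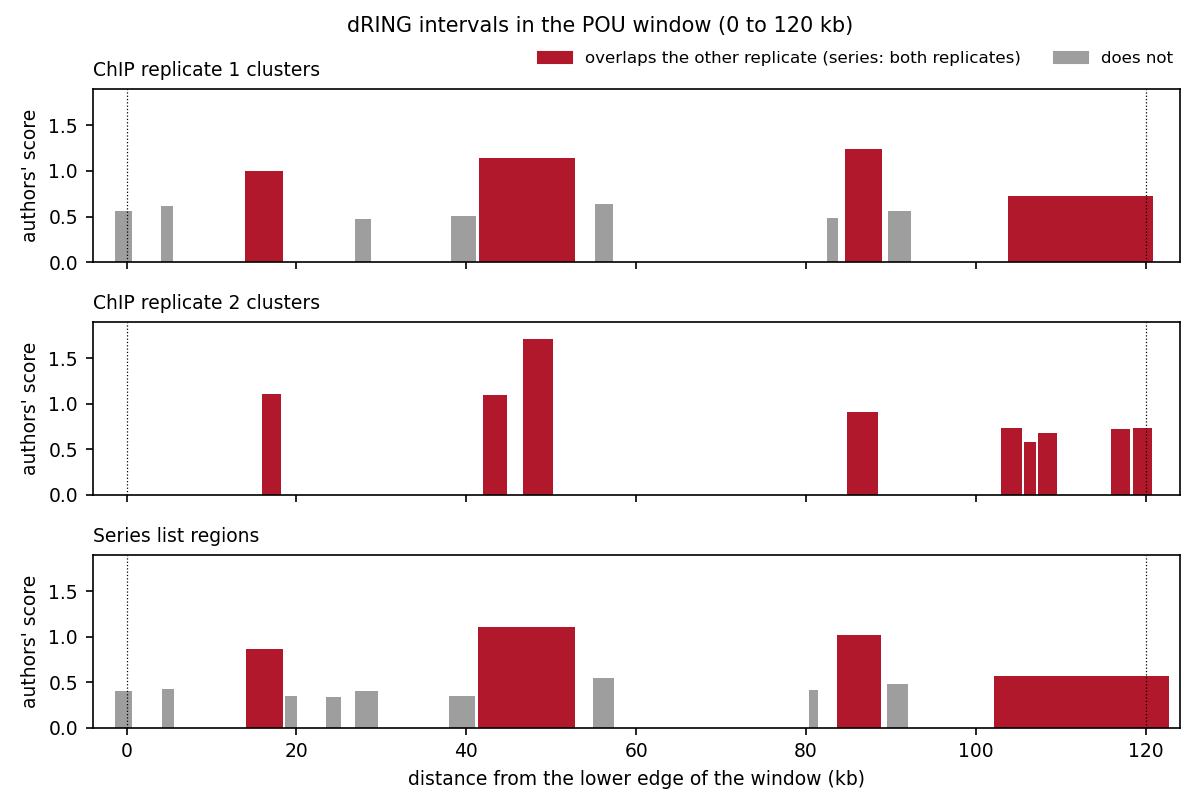
Intervals of ChIP replicate 1 (top), ChIP replicate 2 (middle) and the series list (bottom) along the POU window, from 0 to 120 kb on the horizontal axis in kb; bar width is the interval and bar height the authors' score in that list. Red bars overlap the other replicate (in the series list, both replicates), and the wide bar at the right is 1 cluster in replicate 1 and 5 clusters in replicate 2.

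**Figure D4:**
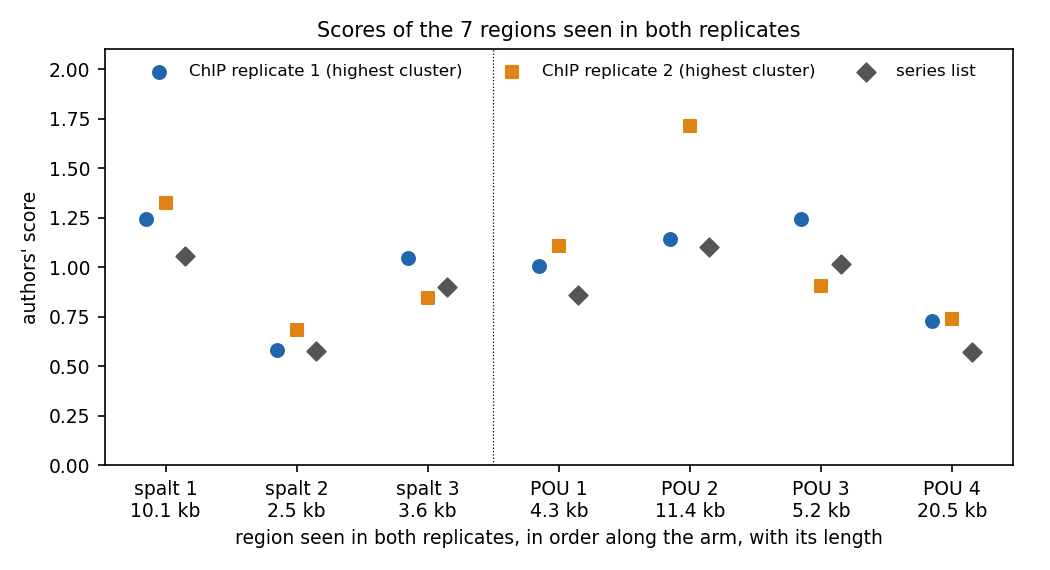
Authors' score (vertical axis) of the 7 regions seen in both replicates, in order along the arm, for the highest cluster of ChIP replicate 1, the highest cluster of ChIP replicate 2 and the series list; points are single values. Each list carries its own scores, so the reading is the order of the regions within a list: it is the same in both replicates in the spalt window, and the highest POU region is the third in replicate 1 and the second in replicate 2.

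The replicates were nested in both windows, with nearly all bases of replicate 2 inside clusters of replicate 1. They shared 10.5 kb in the spalt window, which was 53.3% of the bases of replicate 1 and 99.9% of those of replicate 2. In the POU window they shared 21.3 kb, which was 43.2% of the bases of replicate 1 and 96.04% of those of replicate 2. Over the whole arm the shares were 58.8% and 79.1%. All 9 clusters of replicate 2 in the POU window overlapped replicate 1, and 8 lay wholly inside one of its clusters, while 4 of the 11 clusters of replicate 1 overlapped replicate 2. Such counts of clusters were not made over the arm, so they are not read as particular to the window. The regions seen in both replicates held 44.6% of the bases of the series list in the spalt window, 69.3% in the POU window and 48.4% on the arm.

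Set among the 346 regions of the arm, the 7 stood at places 5 to 176 by length and at places 63 to 189 by score, so none was among the strongest of the arm. The highest series score of any region of the arm seen in both replicates was 3.19, against 1.06 in the spalt window and 1.10 in the POU window. Of the 346 regions, 79.2% had a score at or below that of the highest spalt region (exact binomial 95% interval 74.5 to 83.3%) and 82.1% one at or below that of the highest POU region (77.6 to 86.0%). The 346 are all such regions of the arm and include the ranked one, so these shares are ranks within a full list. The intervals treat regions as independent draws. They measure no error of the ranks themselves and no spread between replicates.

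**Figure D5:**
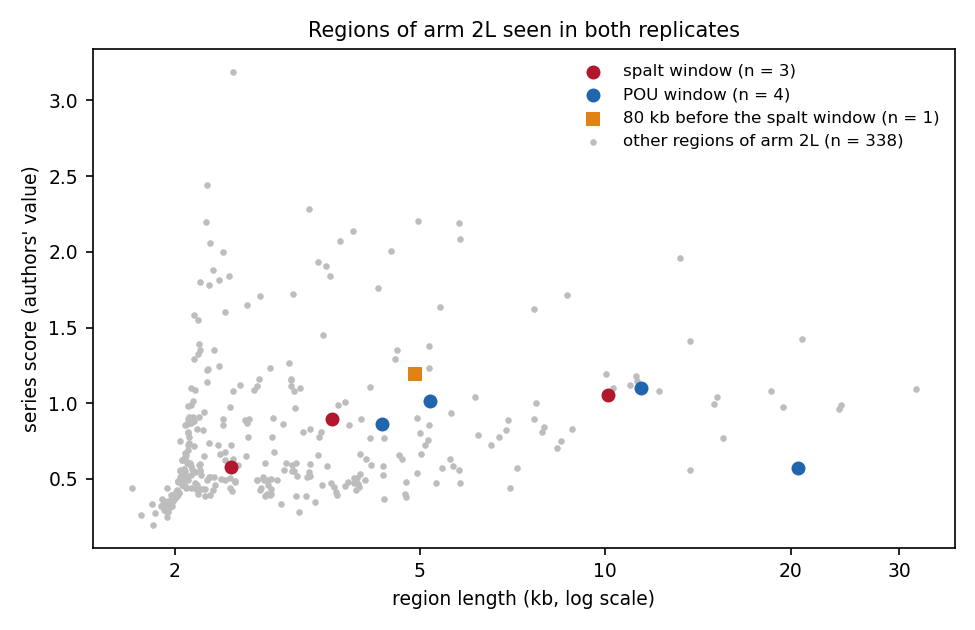
Series score (vertical axis, authors' value) against region length (horizontal axis, kb, log scale) for the 346 regions of arm 2L seen in both replicates; coloured points are the 3 regions of the spalt window, the 4 of the POU window and 1 region in the 80 kb before the spalt window, and grey points are the other 338. The coloured points lie below 1.2 in score, under the highest grey point at 3.19, and the POU region of 20.5 kb lies at 0.57.

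The edges of the windows cut 2 members of the POU window and 1 of the spalt window in the series list. The first series region of the spalt window, from 11419748 to 11421029 with a score of 0.29, crossed the lower edge, and the nearest one outside ended at 11411092 with a score of 0.41. At the upper edge the next region outside was 50.9 kb away, from 11580873 to 11582880, with a score of 0.40. The first series region of the POU window, from 12568601 to 12570602 with a score of 0.40, crossed the lower edge, and the nearest one outside, ending at 12550064, had a score of 0.36. Beyond the fourth region the next one started 31.6 kb past the upper edge, at 12721564, with a score of 0.44.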

How the data were processed

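The authors deposited 3 lists of enriched intervals, 1 for each ChIP library and 1 for the whole series. The authors' score of each interval was deposited with no stated scale or normalization. Per the file headers, positions are in FlyBase release 5. The submitters' processing notes name Bowtie 0.12.7. The interval caller, its threshold and the making of the series list are not stated in those sources. The shortest interval was 1301 bp in both replicate lists and 1001 bp in the series list. The files give no read counts, so the depth is unknown. The labels do not tell separate embryo collections from repeats of 1 collection, so the spread between replicates may be technical.

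Python 3.11.15 did the reading and counting, with numpy 2.4.6 for means and scipy 1.17.1 for exact intervals; matplotlib 3.10.9 drew the plots. Positions count from 1, cover was counted inside the window edges, and the overlap needed was 1 bp. The overlap procedure was tested on simulated data. Scores were ranked within a list. The highest cluster scores of the replicates were also set side by side and averaged, although how the scores of the lists compare is not stated, so such means and SDs describe the lists and not binding. The windows, members and alternatives were chosen with earlier results of these data known. Alternatives were a score limit, other edges, joined intervals, 50% cover, each replicate alone and other comparison sets. All regions seen in both replicates are given in full, and the others by counts and ranges. Protein and motif comparisons that had been planned were not made, because no sequences were used here. Gene names come from a release 6 table, used for names and order. Its limits were also set beside the window edges as plain numbers, without conversion, to check the assignment, and the 80 kb before the spalt window was chosen after that check.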

Additional observations from a re-analysis of the deposited data

How the results depend on the processing

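Over 26 values, 90 recomputations were made, and 70 stayed within the spread of the replicates, within 1.5 times (counts) or within the exact 95% interval (shares). The limit for cover was wide, at 16.0 points in the POU window, where replicate 2 covered 18.5%. The intervals with the highest scores lay more than 10 kb inside the edges, so an inward shift could not change those scores. The count of 70 therefore depends on the limits and does not measure stability. Moving the edges by 10 kb either way and asking for 50% cover moved no value beyond these limits, nor did joining intervals less than 1 kb apart. Keeping intervals above the median score of their list left 9.92% cover and 2 clusters in the spalt window for replicate 1, 23.3% and 9 regions there for the series list, and, in the POU window, 6 clusters of replicate 1 and 7 regions of the series list. The shares of bases in common then were 76.2% of replicate 1 and 100% of replicate 2 in the spalt window, and 44.4% and 95.3% in the POU window. These counted as beyond the limits even where the change was small, as from 43.2% to 44.4% for replicate 1 in the POU window. Bases of a cluster are not independent, so the limit for these shares was narrow. Against all 1258 regions of the arm, 93.6% lay at or below the highest spalt region and 94.4% at or below the highest POU region. Against the 2100 regions of the 6 arms seen in both replicates, these shares were 72.3% and 74.8%. Counting regions seen in the remaining replicate alone, the spalt window had 3 without replicate 1 and 5 without replicate 2, and the POU window had 4 without replicate 1 and 10 without replicate 2. So in these windows the count of regions seen in both is set by replicate 2. Replicate 2 also had the shorter list on arm 2L, with 492 clusters against 597. Of the 1258 regions of the arm, 92 were overlapped by replicate 2 alone and 205 by replicate 1 alone. Extending the spalt window down to 11340000, a choice made after the gene table had been seen, gave 12 clusters of replicate 1 and 29 series regions, with highest scores of 1.60 in replicate 2 and 1.19 in the series list. No paired analysis was possible because the replicate numbers pair ChIP with input and the inputs have no list here. Window and arm were set side by side within each library, with no test over 2 libraries. Unknown depth and the minimum length of clusters limit how finely a region can be split.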

Other observations

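The 80 kb of 2L before the spalt window, from 11340000 to 11419999, was examined because release 6 lists salr before salm. It was chosen after the gene table had been seen, and no gene was placed on it. Its single region seen in both replicates ran from 11356157 to 11361060, 4.90 kb, with a series score of 1.19, which is above that of any region inside either window and at place 50 among the 346 of the arm. The replicate 1 cluster, from 11356042 to 11360630, scored 1.26, and the replicate 2 cluster, from 11357179 to 11360387, scored 1.60 (mean 1.43 ± 0.24, SD, n = 2). Replicate 2 had no other cluster in the 80 kb, while replicate 1 had 4 others with scores of 0.40 to 0.62. Clusters of replicate 1 covered 17.1% of this stretch, against 6.37% of the arm outside the windows, and series regions covered 30.8%, against 11.6%. Replicate 2 went the other way, with 4.01% of the stretch against 4.81% of the arm outside the windows.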
